A study of Tribolium castaneum with 17 samples.

Results

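The genes described here were detected in the adult body of the red flour beetle, *Tribolium castaneum*, and not above a low ceiling in its gonads or early embryos. They are the gene models with at least 10 CPM (read counts scaled to a common library size) in each of the 6 carcass libraries and under 5 CPM in each of the 11 other libraries. The rule selected 126 of the 12302 gene models in the deposited table (1.02%), or 1.48% of the 8499 genes that reached 10 CPM in all carcass libraries, which are called carcass-detected genes. Because the members were chosen on these same values, their high level in carcass and low level elsewhere is a description and was not tested.

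Poly(A) RNA was sequenced from 17 libraries of wild type GA2 beetles in 6 groups. These were male carcass (libraries S10 to S12), female carcass (S7 to S9), embryos of 6-11 hr (S4 to S6), embryos of 0-5 hr (S1 to S3), testis (S16 and S17) and ovary (S13 to S15). Carcass means the adult body after removal of the testes in males or the ovaries in females. Each adult library pooled 30 beetles dissected at 4 days post eclosion, and each embryo library pooled 80 to 100 embryos laid by older adults, so differences between single animals are not seen.

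A carcass is a mixture of nearly all differentiated tissues of the adult. It holds the cuticle-secreting epidermis, the flight and leg muscles, the gut and the Malpighian tubules that act as its kidneys. It also holds the fat body, which stores lipid and makes blood proteins much as a liver does, together with the nervous system, eyes and antennae. Genes used only by such tissues are mostly silent in germ cells and in an embryo that has not yet formed organs. In RNA from whole bodies, fewer cells of a type and less RNA per cell cannot be told apart.

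All 126 members carry a TC identifier of the official gene set. None of them could be given a symbol or a function, because only 1 of the 12282 TC identifiers in the table, and no member, matched the reference annotation used here. None of the 22 identifiers looked up from the study's text was a member. The members are therefore described by identifier, and grouped by level and profile. Levels are shares of reads that are not corrected for transcript length.

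The libraries held 18664366 to 34847471 reads on the gene models of the deposited table, so that 1 read was worth 0.0217 to 0.0595 CPM. Depth here means these sums and not all reads sequenced. Flightin (TC010476), a protein of insect flight muscle, had 917, 951 and 929 CPM in male carcass and 812, 743 and 850 CPM in female carcass. It was not a member, because the testis libraries held 7.65 and 13.8 CPM. Henna (TC000087), which in *Drosophila* encodes an enzyme of eye pigment synthesis, was not a member either, as its level in the other 11 libraries ran from 23.6 to 43.2 CPM. Its carcass level was lowest, at 106 CPM, in male library S11. The embryo gene caudal (TC032769) had 118 to 151 CPM in embryos and at most 40.8 CPM elsewhere, in S11. The other embryo genes looked up were less clear. The Larval serum protein 2 homolog (TC005375) had 78.4, 82.6 and 6.79 CPM at 6-11 hr. It had at most 0.0295 CPM at 0-5 hr, and up to 11.3 CPM outside embryos, in S7. TC015380 had 0.183 to 8.16 CPM in embryos, below its 15.5 to 32.0 CPM in carcass and 61.1 and 29.7 CPM in testis. The homologs of loco (TC009818) and quail (TC013108), listed for ovary, were higher in carcass, at 128 to 221 and 36.8 to 67.7 CPM, than in ovary, at 82.0 to 98.6 and 27.6 to 28.4 CPM. Male library S11 stood apart from the other carcass libraries for many members as well, and its weight in the results is given beside them.

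The members had modest levels in carcass. Their means over the 6 carcass libraries ran from 12.1 to 478 CPM with a median of 26.0 CPM, and the middle part of the list, between the quartiles, spanned 18.4 to 37.8 CPM. The other carcass-detected genes had a median of 52.0 CPM. In the whole table, 361 genes had a higher carcass mean than the top member. Together the members made up 0.456% of the summed carcass CPM. By mean level, 10 members lay at 100 CPM or more, 13 between 50 and 100 CPM, 65 between 20 and 50 CPM and 38 under 20 CPM.

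**Figure D1:**
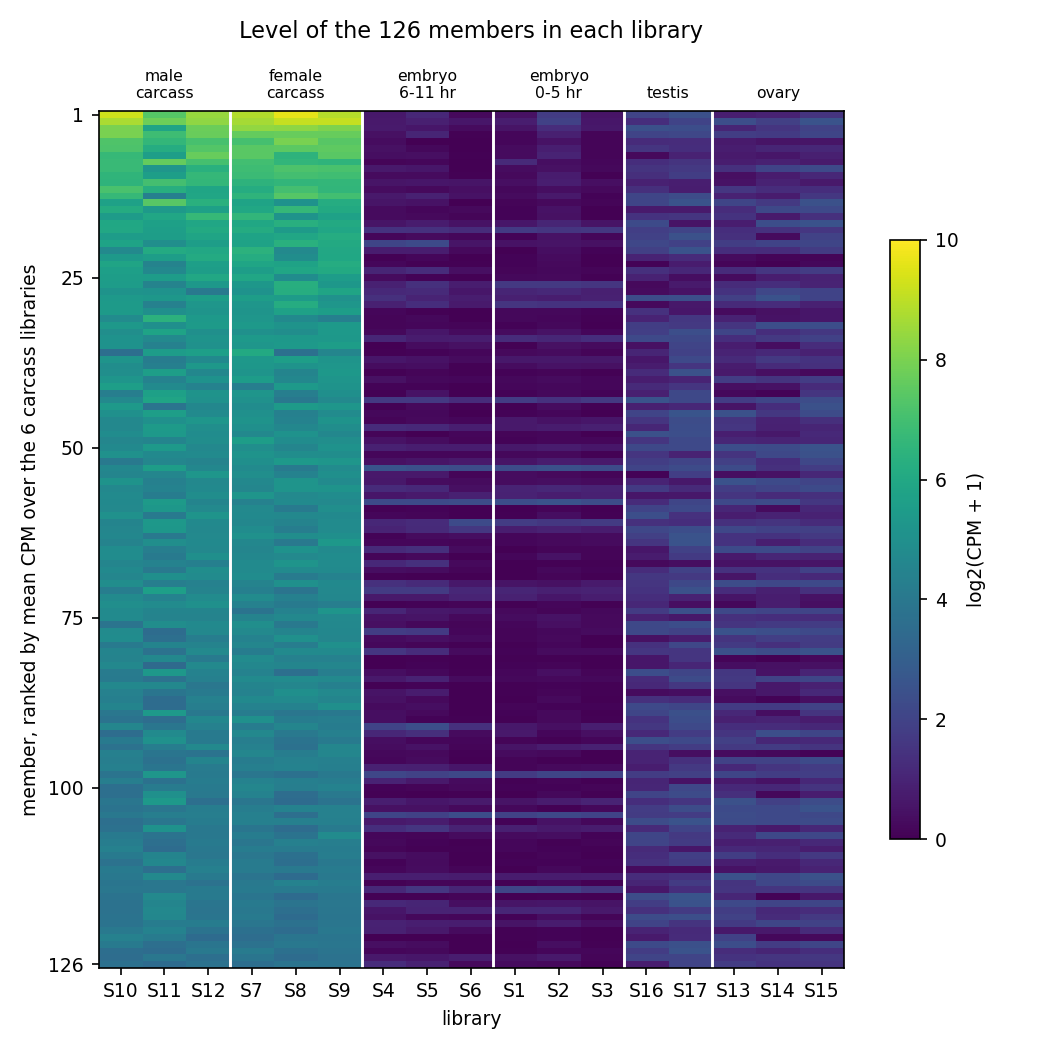
Level of each of the 126 members (rows, ranked by their mean over the 6 carcass libraries) in each of the 17 libraries (columns), as log2(CPM + 1). The carcass columns are high by the rule that chose the genes, the embryo columns are the darkest and the testis and ovary columns lie between them.

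The 10 highest members gave 38.2% of the members' summed carcass level. TC011338 was the highest, with 628, 164 and 349 CPM in male carcass and 464, 784 and 478 CPM in female carcass. Its highest value outside carcass was 4.42 CPM, in testis library S17. TC033809 had 428, 218 and 321 CPM in male carcass and 404, 555 and 558 CPM in female carcass, against at most 4.88 CPM elsewhere. In both genes the lowest carcass value was that of S11, and the male and female values overlapped.

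TC004827 had 251, 56.5 and 215 CPM in male carcass and 329, 319 and 265 CPM in female carcass. TC033767 had 251, 116 and 212 CPM in male carcass, against a narrow 200 to 206 CPM in female carcass. TC008228 had 151, 98.6 and 135 CPM in male carcass and 132, 254 and 167 CPM in female carcass. S11 was again the lowest library for each of them.

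TC032936 had 147, 71.2 and 159 CPM in male carcass and 171, 178 and 180 CPM in female carcass. TC005652 had 110, 37.6 and 80.4 CPM in male carcass and 118, 147 and 137 CPM in female carcass. TC015296 had 92.1, 48.1 and 101 CPM in male carcass and 110, 130 and 121 CPM in female carcass. Every male library lay below every female one for these genes, as for TC004827, and S11 lay furthest below.

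TC015620 had 102, 47.9 and 202 CPM in male carcass and 175, 86.2 and 174 CPM in female carcass, a wide spread within each sex. TC008031 was the exception among the 10, with its highest value in S11: 108, 200 and 131 CPM in male carcass and 126, 96.1 and 88.5 CPM in female carcass. Over the 10 genes together, male carcass summed to 2268 CPM in S10, 1058 CPM in S11 and 1903 CPM in S12, and female carcass to 2231, 2754 and 2374 CPM. The other 116 members did not show this dip, with 3202, 3384 and 3295 CPM in male carcass and 3512, 3362 and 3611 CPM in female carcass.

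Outside the carcass, the members were lowest in embryos and closer to the ceiling in gonads. Their summed level in embryos of 6-11 hr was 84.7, 87.2 and 53.6 CPM, and in embryos of 0-5 hr 57.1, 73.0 and 52.5 CPM. In testis it was 241 and 323 CPM and in ovary 227, 215 and 262 CPM, the 6 carcass libraries having summed to 4442 to 6116 CPM. As a share of the carcass mean, embryos held 0.955% to 1.59%, testis 4.39% to 5.88% and ovary 3.91% to 4.78%. The median of the members' group means was 0.258 CPM at 6-11 hr, 0.177 CPM at 0-5 hr, 2.09 CPM in testis and 1.65 CPM in ovary.

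The group with the highest mean outside carcass was testis for 77 members, ovary for 40, embryos of 6-11 hr for 4 and embryos of 0-5 hr for 5. Under 1 CPM in every embryo library were 88 members, and under 1 CPM in every gonad library only 6. In contrast, 8 members had 1 CPM or more in all 6 embryo libraries, among them TC000582 and TC031770, and 55 had 1 CPM or more in all 5 gonad libraries. The highest member of each library lay near the ceiling everywhere, between 3.99 and 4.99 CPM, so the rule itself limits the differences that can be seen between these groups.

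**Figure D2:**
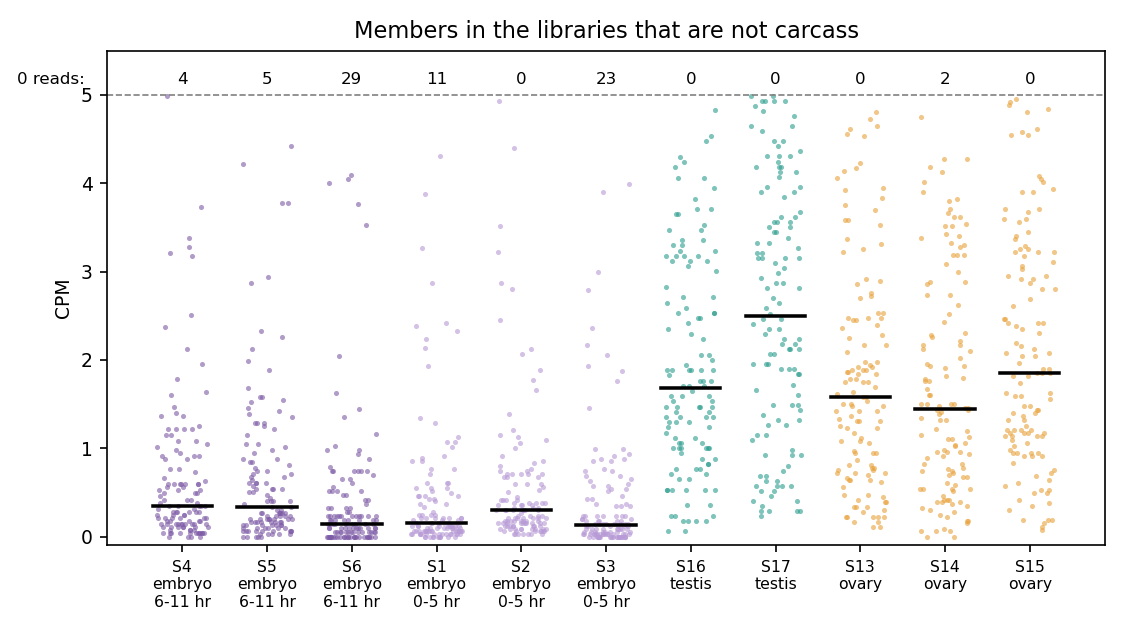
CPM of the 126 members (points) in each of the 11 libraries that are not carcass, with the median of each library as a black bar, the ceiling of 5 CPM dashed, and the number of members at 0 reads along the top. The medians lie between 0.128 and 0.349 CPM in the 6 embryo libraries and between 1.44 and 2.50 CPM in the 5 gonad libraries.

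Single libraries differed in these low levels. In embryos of 0-5 hr, S2 had a read for every member, whereas S1 lacked reads for 11 members and S3 for 23, at similar depths of 29041836 to 31126463 reads. The 10 highest members summed to 11.0 CPM in S2, which is 0.525% of their carcass mean, against 3.94 CPM in S1 and 2.25 CPM in S3. Flightin moved with them, at 4.05 CPM in S2 against 0.886 CPM in S1 and 0.541 CPM in S3. Whether carcass RNA contributes to the reads in S2 was not tested.

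In embryos of 6-11 hr, S6 lacked reads for 29 members, against 4 in S4 and 5 in S5. S6 also had the fewest reads of this group, 20221563 against 26253717 and 27244356. Several genes outside the list were lower there in CPM as well. TC005375 had 6.79 CPM in S6 against 78.4 and 82.6 CPM in S4 and S5. TC015380 had 1.39 against 7.12 and 8.16 CPM, and flightin 0.279 against 2.34 and 2.29 CPM. Henna was not lower, at 33.6 against 29.3 and 30.0 CPM. Whether depth or another difference of S6 lies behind its members without reads was not tested. In testis, S17 held 26 members at 4 CPM or more and S16 held 8, and flightin was at 13.8 CPM in S17 against 7.65 CPM in S16. The members' summed level in testis was 5.88% of the carcass mean in S17 and 4.39% in S16.

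The members fewest in reads outside carcass show how far the separation can go. TC003044 had 35 reads over the 11 other libraries, none of them in S3 or S14, and at most 0.688 CPM, in S17. Its carcass levels were 56.8, 21.0 and 48.6 CPM in male carcass and 57.9, 52.9 and 71.4 CPM in female carcass, so that the lowest carcass library lay 30.5-fold above the highest other one. TC005533 had 54 reads elsewhere, of which the highest value was 1.89 CPM in S17, and TC008161 had 64 with at most 1.00 CPM, in S16.

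TC016395 had 70 reads outside carcass and a carcass mean of 52.9 CPM, and TC033466 had 72 and a carcass mean of 21.4 CPM. Only 4 members, all named here after their values were seen, stayed under 1 CPM in all 11 other libraries: TC033812, TC003044, TC003045 and TC003383. TC033812 also had the widest gap, its lowest carcass value lying 92.2-fold above its highest other value. Over all members this ratio ran from 2.08 to 92.2 with a median of 5.08, and it was 10 or more in 31 members.

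Male and female carcass were compared for the members. The rule asks for the same minimum in both sexes and so leaves out genes that fall below it in either sex. It does not use the difference between the sexes directly, but it limits how large that difference can be, most for members near the minimum. Of the 126 members, 0 were called higher and 0 lower in male carcass by limma on log2(CPM + 1), where a call needed at least a 2-fold difference and an adjusted p under 0.01. Among the 12152 genes tested, 5.13% were called higher in male carcass and 0.0658% lower. Among the 8499 carcass-detected genes, which meet the same minimum, the shares were 0.176% and 0.0118%. The 0 calls among 126 members are near this background. Because the minimum itself removes genes low in either sex, they do not show that carcass genes of this kind lack sex differences. At an unadjusted p under 0.05, 3 members were higher and 13 lower, and the quasi-likelihood test of edgeR and DESeq2 on the recovered reads also called 0 each way.

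The members' log2 fold changes of male over female carcass ran from -1.29 to 0.79 with a median of -0.11, and the median SE was 0.26. The median was -0.09 over all genes tested and -0.10 over the other carcass-detected genes. Scaling by library totals moved the median of all genes to 0.06 and that of the members to 0.04, so the sign of the shift depended on the scaling. Without S11 the members' median was -0.07.

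TC006419 had the most negative fold change, -1.29 (SE 0.44, adjusted p = 0.0764, limma). It had 102, 18.9 and 60.2 CPM in male carcass and 89.3, 162 and 125 CPM in female carcass, and the sexes overlapped through S10. Without S10 it was the single member called, with a log2 fold change of -1.81 (SE 0.40, adjusted p = 0.00706, limma). With all libraries it was not called.

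The lowest adjusted p among the members was that of TC034082, chosen after its values were seen. It had 15.7, 22.8 and 21.3 CPM in male carcass and 30.5, 41.7 and 36.9 CPM in female carcass, without overlap, and averaged 19.9 ± 3.75 and 36.4 ± 5.60 CPM in male and female carcass (SD, n = 3 each). The log2 fold change was -0.84 (SE 0.22, adjusted p = 0.0203, limma), which misses the call on both criteria. TC032229, also chosen after its values were seen, was the one member with every male library above every female one, at 29.8, 27.5 and 31.8 CPM in male carcass and 19.9, 15.7 and 18.3 CPM in female carcass. Its log2 fold change was 0.70 (SE 0.20, adjusted p = 0.0350, limma).

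Every male library lay below every female library for 18 members, above for 1, and the sexes overlapped for 107. The same held below for 25.5% and above for 9.77% of all genes tested, and for 28.4% and 4.37% of the carcass-detected genes. The 18 members are 14.3% of the list and the 1 above is 0.794%. Without S11 there were 18 members below and 5 above, against 34.0% and 5.18% of the carcass-detected genes. All these counts use the deposited scaling. With library totals the median log2 fold change of the other carcass-detected genes went from -0.10 to 0.05. The overlap was not counted under that scaling, so the balance of below and above may depend on it.

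**Figure D3:**
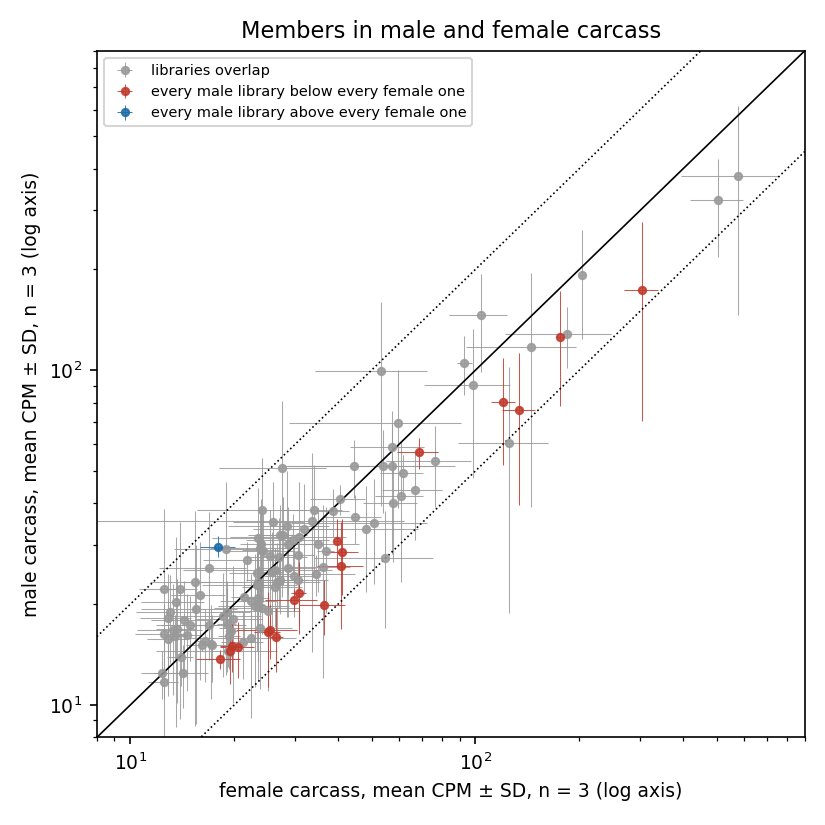
Mean CPM of each member in male carcass (vertical, log axis) and in female carcass (horizontal, log axis), with SD bars over 3 libraries each, the line of equal levels solid and 2-fold changes dotted. Most members lie between the dotted lines, and colour marks the 18 members with every male library below every female one and the 1 above.

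The male libraries carried some RNA of testis genes. The 3 testis markers, TC009035 (beta2-tubulin, a tubulin of sperm tails), TC006703 (Rad50, a DNA repair protein) and TC032055, summed to 157 to 421 CPM in male carcass and 3.18 to 7.29 CPM in female carcass, against 5691 to 7288 CPM in testis. No marker was at 0 in the male libraries. TC009035 in S11 was 7.21% of its testis mean, the highest of the male libraries. The highest testis value of any member was 4.99 CPM. Scaled by the TC009035 share of each male library, it came to 0.135 CPM in S10, 0.360 CPM in S11 and 0.308 CPM in S12. The rule asks for at least 10 CPM in these libraries. Whether testis RNA has a part in the members' male carcass values was not tested.

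Levels of the members varied widely among the 6 carcass libraries, with S11 and S8 furthest from the rest. The median coefficient of variation over these libraries was 0.272, against 0.139 in the 7981 other carcass-detected genes with means between 12.1 and 478 CPM. Levels were not matched within that wide range. The members' median was 26.0 CPM, against 52.0 CPM in all other carcass-detected genes. The members' highest carcass value was between 1.12 and 8.59 times the lowest, with a median of 2.15. Without S11 the median coefficients of variation were 0.179 and 0.104, and the highest value was between 1.12 and 5.86 times the lowest, with a median of 1.59. As the rule asks for the same floor in every library, it leaves out more of the variable genes near 10 CPM than of the steady ones.

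The steadiest member was TC031770, with 14.7, 14.8 and 15.9 CPM in male carcass and 16.04, 15.8 and 16.5 CPM in female carcass. It was followed by TC005430, TC014347, TC013419 and TC005637, whose coefficients of variation were 0.099 to 0.126. The most variable member was TC031794, at 14.3, 40.9 and 11.6 CPM in male carcass and 14.1, 10.4 and 13.1 CPM in female carcass, where S11 alone was high.

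TC000638 had 11.3, 45.6 and 49.4 CPM in male carcass and 66.1, 12.1 and 22.7 CPM in female carcass, with S8 and S10 low across the sexes. TC031341 was highest in S11, with 51.1, 167 and 80.6 CPM in male carcass and 54.4, 33.6 and 71.6 CPM in female carcass. TC003990 was likewise highest in S11, with 27.5, 84.8 and 40.6 CPM in male carcass and 37.6, 26.1 and 18.8 CPM in female carcass. TC006419, described with the sexes, was the other member of the most variable 5, and it was lowest in S11. Without S11, TC000638 was the most variable member, with a coefficient of variation of 0.755, and the other 4 named here were no longer among the most variable 5.

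S11 was the highest carcass library for 38 members and the lowest for 56, together 74.6% of the list. Among the other carcass-detected genes the share was 69.9%; many genes outside the list thus had S11 at an extreme too. The size of the departure was larger in the members. In S11, 10 members (7.94%) were at least 2-fold above the mean of S10 and S12 and 12 (9.52%) at least 2-fold below it, against 2.82% and 2.42% of the other carcass-detected genes. This difference was not tested.

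Of the 10 members at 100 CPM or more, 9 were lowest in S11, with a median of 0.43 times the mean of the other carcass libraries. Of the 38 members under 20 CPM, 12 were lowest and 17 highest there, with a median of 1.03 times. Members near 10 CPM that fell in S11 would have missed the rule, which limits how many low members can be lowest there. Henna was lowest in S11 as well, at 106 CPM against 185 and 250 CPM in S10 and S12, whereas flightin was not.

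Female library S8 varied next most, and in the opposite sense to S11. The deviations of the 126 members from their own carcass means, on the log2(CPM + 1) scale, had a Pearson r of -0.74 between S8 and S11. Between S8 and male library S10 it was 0.52, and between S7 and male library S12 it was 0.43, both across the sexes. These values are across genes, which are not independent replicates, and deviations from a shared mean are pulled toward negative r. For 33 members (26.2%) S8 and S10 were the lowest pair of libraries, against 1256 of the 8373 other carcass-detected genes. The labels give no batch, day or dissection for these libraries.

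The first principal component of the deviations held 66.5% of their variation and set S11 (loading 0.82) against S8 (-0.50). Without S11 the first component held 62.4%. The second, over all 6 libraries, held 18.1% and did not separate the sexes either. The levels of the members correlated across genes at r = 0.52 to 0.72 in the 5 pairs of libraries with S11, and at 0.84 to 0.96 in the 10 pairs without it.

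**Figure D4:**
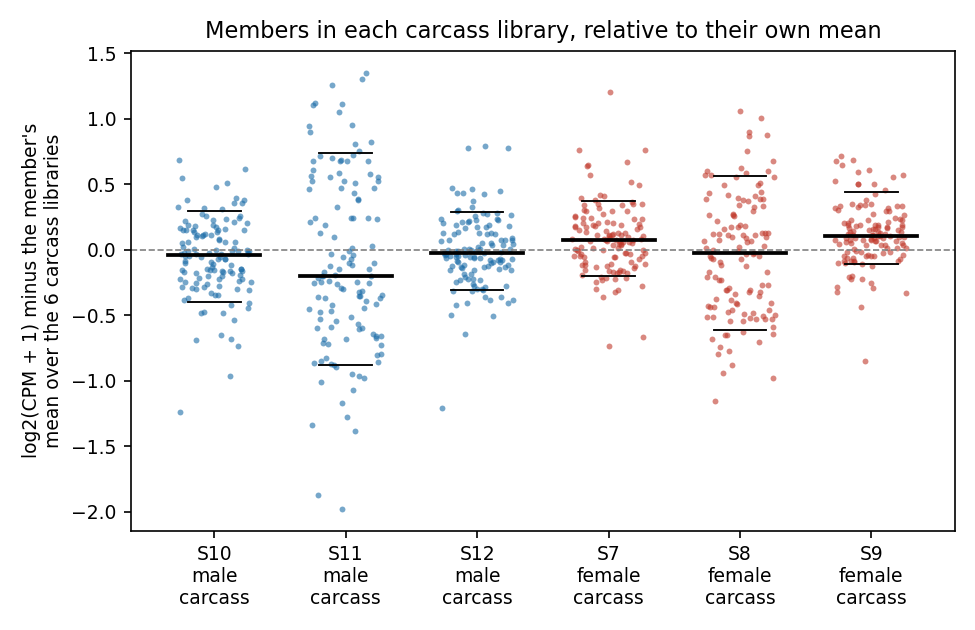
Deviation of each member (points) from its own mean over the 6 carcass libraries, as log2(CPM + 1), in the male libraries S10 to S12 and the female libraries S7 to S9. Black bars are the median and the tenth and ninetieth percentiles, which lie 1.62 apart in S11 and 1.17 in S8, and 0.55 to 0.69 apart in the other 4 libraries.

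The remaining comparisons look at the members where they are low. The rule held every value in them under 5 CPM in both groups, which limits the changes that can appear and the spread of the libraries, and it sets no such limit on the other genes tested. All 126 members passed the filter of 5 CPM in at least 3 libraries, through their carcass values. Counts, levels and fold changes are therefore given as a description of the members, and nothing is read from the share of calls beside that over all genes. Fold changes are on the log2(CPM + 1) scale, which understates the ratios of low values.

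Between testis and ovary, 9 members were called higher in testis and 5 lower by limma, against 22.1% and 21.1% of all genes tested. TC006464 was higher in testis, at 4.06 and 4.99 CPM in testis and 1.08, 0.0651 and 0.568 CPM in ovary (log2 fold change 1.86, SE 0.28). TC004502 was also higher, at 4.53 and 4.30 CPM in testis and 0.779, 0.542 and 1.25 CPM in ovary (1.56, SE 0.22). The groups did not overlap in either gene.

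TC006247 was higher in testis, but with unequal testis libraries of 1.35 and 4.59 CPM, against 0.612, 0.325 and 0.189 CPM in ovary (1.41, SE 0.35), and it was not called without S17, at 0.79. TC030752 was lower in testis, at 0.235 and 0.402 CPM in testis and 1.75, 3.32 and 3.03 CPM in ovary (-1.46, SE 0.36). TC033231 was lower at 1.00 and 0.574 CPM in testis, against 4.81, 3.80 and 3.10 CPM in ovary (-1.45, SE 0.25). TC007265 was lower at 0.647 and 0.631 CPM in testis, against 1.42, 3.51 and 3.56 CPM in ovary (-1.17, SE 0.30). The call of TC007265 was lost without S14 (-1.02) or S15 (-1.01), with edgeR, and when only the groups compared were fitted.

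The direction of the list as a whole depends on the scaling. The median log2 fold change of testis over ovary was 0.23 over the members and -0.03 over all genes tested. With library totals these were -0.24 and -0.63, and the members called were 2 higher and 14 lower in testis.

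Between embryos of 6-11 hr and 0-5 hr, 1 member was called higher in the later stage and 0 lower by limma, against 2.03% and 2.11% of all genes tested. TC015614 had 3.18, 4.22 and 1.63 CPM at 6-11 hr and 0.550, 0.325 and 0.769 CPM at 0-5 hr, without overlap (log2 fold change 1.33, SE 0.26). At an unadjusted p under 0.05, 11 members were higher and 1 lower at 6-11 hr. The quasi-likelihood test of edgeR called 11 higher and 0 lower, and DESeq2 16 higher and 2 lower.

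The count depended on library S6. TC015492, chosen after its values were seen, had 3.21 and 3.78 CPM in S4 and S5 but 0.465 CPM in S6, against 0.397, 0.443 and 0.370 CPM at 0-5 hr. Without S6, limma called 5 members higher at 6-11 hr: TC015492 (1.68), TC015614 (1.60), TC032123 (1.55), TC007266 (1.23) and TC003486 (1.19 on the log2 scale). TC015614 was not called when S1, S2, S4 or S5 was left out.

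Between embryos of 0-5 hr and ovary, 0 members were called higher in the embryo and 49 lower by limma, against 8.80% and 30.2% of all genes tested. At an unadjusted p under 0.05, 0 members were higher and 83 lower, and the quasi-likelihood test of edgeR called 0 higher and 89 lower and DESeq2 0 higher and 92 lower. With 5 added to each CPM, 0 were called lower. The log2 fold changes of embryo over ovary ran from -2.22 to 0.52 with a median of -0.87, and 118 members lay below 0. The median over all genes tested was -0.05.

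TC003486 had 0.0611, 0.236 and 0.228 CPM in embryos of 0-5 hr and 4.56, 4.01 and 4.84 CPM in ovary (log2 fold change -2.22, SE 0.30). TC034143 had 0.153, 0.0295 and 0.171 CPM in the embryos and 3.70, 3.67 and 4.96 CPM in ovary (-2.18, SE 0.18). TC032123 had 0.0917, 0.148 and 0.228 CPM in the embryos and 4.73, 4.27 and 3.67 CPM in ovary (-2.17, SE 0.38). TC003486 and TC032123 were also among the members called higher at 6-11 hr without S6, with 1.95 and 1.42 CPM in S4 and S5 for TC003486 and 2.51 and 2.26 CPM for TC032123.

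The table numbers its gene models in the order of the annotation used by the authors, and members often stood close together in that numbering. Of the 126 members, 17 (13.5%) had another member as the next or previous model number, 35 (27.8%) within 5 numbers and 48 (38.1%) within 10. The shares were 1.50%, 6.58% and 12.6% of the other carcass-detected genes. The 48 members formed 19 runs, of which 14 were pairs. Chromosome positions of the members were not used here, so closeness in number was not checked against the genome.

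The largest run had 7 members within numbers 2970 to 2992: TC003043, TC003044, TC003045, TC003383, TC003055, TC003380 and TC003379, named after their values were seen. The table holds 13 models in this stretch, and the 7 members are all of those with 10 CPM or more in every carcass library. Of the other 6, TC003058, also named after its values were seen, would be the highest of the stretch, with 144 and 67.6 CPM in S10 and S12 and 72.3, 182 and 78.2 CPM in female carcass. It missed the rule because S11 held 0.654 CPM, and its highest level outside carcass was 0.918 CPM.

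**Figure D5:**
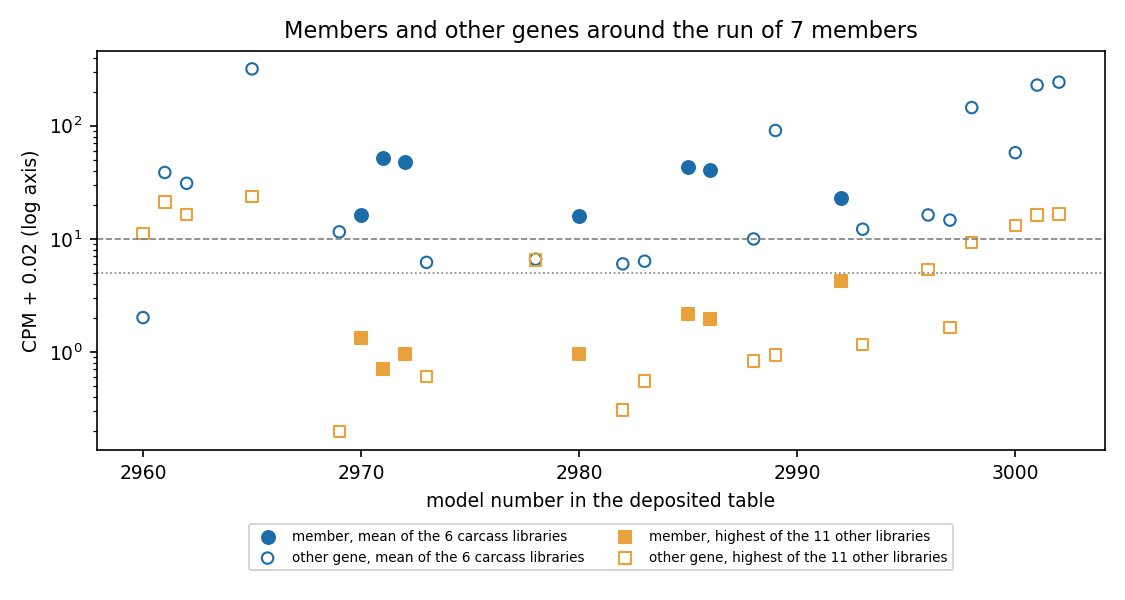
Mean CPM over the 6 carcass libraries (circles) and the highest CPM of the 11 other libraries (squares) for the gene models numbered 2960 to 3002, with 0.02 CPM added for the log axis, members filled and other genes open. The 7 members have carcass means of 15.97 to 51.4 CPM and at most 4.19 CPM elsewhere, and the dashed and dotted lines mark 10 and 5 CPM.

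The members of this run did not follow one profile across the carcass libraries. TC003044 was lowest in S11, TC003045 lowest in S8 with 28.3 CPM, and TC003379 lowest in S10 with 13.4 CPM, near S8 with 15.6 CPM. TC003055 and TC003380, with consecutive numbers, had nearly the same values in every carcass library, the ratio of TC003380 to TC003055 being 0.943 to 0.962, and both were highest in S8. Reads may be shared between overlapping or near-identical models, so these 2 members may not be separate measurements. Without TC003380, 47 of 125 members (37.6%) had another within 10 numbers.

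TC034073 and TC005726, also consecutive, had a ratio of 0.658 to 0.793 over the carcass libraries and were both highest in S11, and they carry the same uncertainty. Among the 36 pairs of members within 10 numbers of each other, r over the 6 carcass libraries was above 0.9 for 5 pairs and below 0 for 13. It ran from -0.95 to 1.00. With only 6 libraries, of which S11 and S8 set most of the spread, these values only describe the pairs.

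The members just inside the carcass minimum were TC033466 with 10.1 CPM in S11, TC001740 with 10.2 CPM in S8 and TC034148 with 10.2 CPM in S12. Just outside lay TC034238 with 9.98 CPM in S8, TC000942 with 9.88 CPM in S10 and TC013617 with 9.87 CPM in S11. Just under the ceiling were TC006464 and TC031805, both with 4.99 CPM in S17, and TC000582 with 4.99 CPM in S4. Just over it were TC011237 with 5.03 CPM in S15, and TC004953 and TC015779, both with 5.05 CPM in S17.

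Which genes were members depended most on 2 libraries. Testis library S17 alone kept 91 genes out and male carcass library S11 alone kept 55 out, whereas no other library alone kept out more than 12. By group, testis alone kept out 280 genes that met the rule everywhere else, ovary 173, embryos of 6-11 hr 5 and embryos of 0-5 hr 1. The medians of these genes' means in the group that kept them out were 7.97 CPM in testis and 7.66 CPM in ovary.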

How the data were processed

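Poly(A) RNA libraries were sequenced as unpaired 75-nt reads. The authors aligned them with HISAT2 2.0.5 to Tcas5.2, obtained counts for each gene model with BEDTools and applied TMM scaling in edgeR, and the deposited signal values are these normalized CPM. They are named independent biological replicates by the authors, and all RNA was extracted and made into libraries together. The smallest value above 0 in a library was taken as 1 read, which gave whole reads, within 0.01 read, for 100% of 209134 values. Depth, summed over the gene models of the deposited table, ran from 18664366 to 34847471 reads. In CPM, 1 read was worth 0.0217 to 0.0595, and read numbers cover counting error only.

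Genes that reached 5 CPM in 3 libraries or more (12152) were tested with limma 3.58.1 (R 4.3.3) on log2(CPM + 1), with trended and robust variances and all 17 libraries in 1 model. A call needed a 2-fold change and a Benjamini-Hochberg adjusted p under 0.01 over all genes tested within each of the 4 comparisons. The alternatives were edgeR 4.0.16 and DESeq2 1.42.0, run on recovered reads, scaling by library totals or RLE factors, other pseudocounts, filters, thresholds and rule limits, and leaving out each library. A further 4 were chosen after seeing the data: leaving S11 out of the count of sexes without overlap and out of the spread over carcass libraries, TC003380 out of the neighbour count, and members under 20 CPM out of the summed level.

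The members and lists were chosen with earlier results of these data known. Members named were the 10 highest in carcass, those with the largest called changes (up to 3 each way; up to 10 for the sexes), the 5 with fewest reads outside carcass, the 5 most and 5 least variable in carcass, the 3 nearest each limit on either side, any identifier of the study, flightin and henna. Any other gene is marked where it is named. Gene lists by function were not used, because identifiers could not be matched to names. Figures were made with Python 3.11.15 and matplotlib 3.10.9.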

Additional observations from a re-analysis of the deposited data

How the results depend on the processing

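No paired analysis was possible because the libraries of different groups share no replicate number. For male against female carcass, 0 members were called higher under every alternative, and leaving out replicates gave 0 to 1 lower (1 without S10). For testis against ovary (9 higher, 5 lower), the counts higher and lower were 0 and 0 with 5 added to each CPM and with a log2 threshold of 2, 21 and 12 with DESeq2 and 2 and 14 with library totals. Fitting only the groups compared gave 3 higher, adding 0.1 gave 9 lower and dropping the fold threshold gave 8 lower. Leaving out replicates gave 4 (without S14) to 14 (without S16) higher and 2 (without S16) to 6 lower, with 3 lower without S15. For 6-11 hr against 0-5 hr (1 higher, 0 lower), 0.1 added gave 8 higher, an adjusted p of 0.05 gave 2, edgeR 11 and DESeq2 16 higher and 2 lower. It was 0 higher with 5 added, a log2 threshold of 2 or only the groups compared, and 0 to 5 when replicates were left out. For 0-5 hr against ovary (49 lower), the count lower was 88 with 0.1 added, 0 with 5 added, 92 with DESeq2, 89 with edgeR and 5 with a log2 threshold of 2. Adding 5 CPM to values under 5 CPM leaves no 2-fold change to call by construction; the cause of the other shifts was not tested.

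The number of members was 301 with a carcass minimum of 5 CPM and 45 with 20 CPM. It was 4, 28 and 484 with ceilings of 1, 2 and 10 CPM, and 300 with group means in place of every library. Library totals gave 89, of which 78 were among the 126, and RLE factors 139, of which 125 were. Leaving out replicates gave 126 to 217 members, the highest without testis library S17, and 181 without S11. The 10 genes named for called changes kept the call in 142 of 174 alternatives, lost it in 32 and changed sign in 0. Part of this tally was fixed in advance. An adjusted p of 0.05 or no fold threshold on the same fit cannot lose a call, and each kept all 10. With 5 added to each CPM no call could be kept, and all 10 were lost. Testis had only 2 libraries, and under 1 CPM a value rests on few reads.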

Other observations

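As a share of the mean carcass sum of the same genes, the members' low level outside carcass depended on which members were summed. Embryos of 6-11 hr held 1.37% with all 126 members and 2.12% without the 10 highest, and embryos of 0-5 hr held 1.11% and 1.62%. Testis held 5.14% and 7.64%, and ovary 4.27% and 6.43%. The ceiling of 5 CPM allows a low member a larger share of its carcass level than a high one. Flightin, which the rule did not choose, held 0.0322% to 0.467% of its carcass mean in the 6 embryo libraries, 0.882% and 1.59% in testis and 0.303% to 0.545% in ovary. In this gene S2 was the highest embryo library and S17 the higher testis library, as they were for the 10 highest members.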
